A study of Mus musculus with 18 samples.

Results

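The 65 genes described here belong by name to families of serine proteases and of inhibitors of serine and cysteine proteases, many of them epidermal. They were chosen by name from the 14521 named genes of the table, as every kallikrein (Klk), Tmprss and Prss gene with a number, every clade B serpin (Serpinb), every Spink and stefin (Stfa) gene, and Cst3, Cst6, Csta and Cstb. The name rule itself used no expression values, but it was set with earlier results of these data known. They comprise 32 serine proteases and 33 inhibitors, namely 10 kallikreins, 6 genes of the Tmprss11 cluster, 4 other Tmprss genes, 12 Prss genes, 3 Spink genes, 22 clade B serpins, 6 stefins and 2 cystatins. This grouping follows the gene names and does not show that each member is an active protease or inhibitor. Expression had been measured by RNA sequencing in SKH-1E hairless mice, an outbred strain that readily forms skin tumours under ultraviolet light, and all animals had been chronically irradiated with a solar simulator. Each of 6 female littermates (numbered 2, 3, 7, 8, 9 and 10) gave 3 libraries: skin without a lesion from the irradiated field (CHR), a benign precancerous outgrowth (papilloma, PAP) and an invasive tumour (squamous cell carcinoma of the skin, SCC), so that n = 6 in each group. Age was not given in the labels, no unirradiated skin was analysed here, and CHR is therefore chronically exposed rather than normal skin.

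The outermost layer of the skin is shed by serine proteases of the kallikrein family, which cut the protein bridges between dead keratinocytes, and membrane-bound proteases such as prostasin and the Tmprss enzymes act in the living layers beneath. Serpins of clade B remain mostly inside cells, and many of them trap proteases irreversibly. Spink proteins are secreted and bind kallikreins, and stefins and cystatins block cysteine proteases such as cathepsins and legumain. Loss of such inhibitors is known to cause scaling and barrier disease, as for SPINK5 in Netherton syndrome and for cystatin M/E in ichthyotic mice.

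Each library held between 15.42 and 21.02 M recovered reads. The libraries held keratinocyte RNA throughout, with 522800 to 977600 normalised reads summed over 20 keratinocyte markers in CHR, 832200 to 1534000 in PAP and 331400 to 1019000 in SCC, and in PAP 15 of the 20 rose above CHR and 1 fell. Markers of the deeper skin moved the other way. All 12 skeletal muscle markers were lower in PAP than in CHR, with sums of 394800 to 592700 in CHR and 312 to 29720 in PAP, as were all 10 sebaceous gland, all 9 macrophage and all 9 T cell markers measured. The carcinoma of mouse 10 stood apart, with 411 summed muscle reads, the lowest of the 6 carcinomas, against 199600 in the highest, and its dermal fibroblast sum of 20110 was likewise the lowest. In whole tissue, fewer cells of a type and less RNA per cell cannot be told apart.

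Among the 65 genes, PAP exceeded CHR for 11 and fell below it for 18 at an adjusted p under 0.05 in limma, that is 16.9% and 27.7%, where 22.8% and 28.7% of all genes were called. In SCC compared with CHR, 10 were higher and 16 lower (15.4% and 24.6%, against 15.1% and 21.4% of all genes). The share of genes called was therefore near the background, or below it for increases in PAP. Their median log2 fold changes were 0.05 in PAP and -0.19 in SCC, beside 0.00 and -0.02 over all genes. Of the 32 proteases, 7 rose and 7 fell in PAP, and 10 rose and 7 fell in SCC. Of the 33 inhibitors, 4 rose and 11 fell in PAP, and 0 rose and 9 fell in SCC. There, 13 of the 33 had an unadjusted p under 0.05 in either direction, limma-voom also called 0 higher, and limma-voom with the mouse as block called 1 (Spink12, adjusted p = 0.0237). The difference between proteases and inhibitors was not tested. Values are compared on the log2(value + 1) scale of the deposited table, which understates changes of weakly expressed genes, and levels are given as normalised read counts.

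Scaling moved the balance of these calls. Centring each library on its median gene, which differed by -0.14 between PAP and CHR, gave 16 higher and 15 lower members in PAP, with 32.6% and 24.1% of all genes. Centring on the keratinocyte markers, whose mean was higher by 0.997 in PAP on the log2 scale, gave 2 higher (Tmprss11bnl and Tmprss11g) and 36 lower, where 0.806% and 77.6% of all genes were called. With animals left out, 3 members were called higher in PAP without mouse 7 and 4 without mouse 9. The 8 calls lost without mouse 7 had log2 fold changes of 0.65 to 1.57, against 0.69 to 1.68 with all mice, and the 7 lost without mouse 9 had 0.51 to 1.33, against 0.71 to 1.67. Of the decreases, 15 of the 18 in PAP and 15 of the 16 in SCC kept their call in every setting run, where each gene remained in the test.

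The same libraries of CHR serve both comparisons, so their calls are not independent. Called with the same sign in both were 22 genes, 7 higher and 15 lower, which is 75.9% of the calls in PAP and 84.6% of those in SCC, and 0 genes were called with opposite signs. The matching shares over all genes were not computed, so this overlap cannot be read as a trait of these genes. The 7 called in PAP but not in SCC were Csta, Stfa1, Stfa2, Stfa2l1, Serpinb9, Serpinb6b and Prss27. The 4 called in SCC but not in PAP were Klk5, Klk10, Tmprss11d and Tmprss11e, and 32 members were called in neither. Ranges that did not overlap between the groups were found for 3 members higher and 9 lower in PAP (14.4% and 19.3% of all genes), and for 3 higher and 10 lower in SCC (8.57% and 11.3%).

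**Figure D1:**
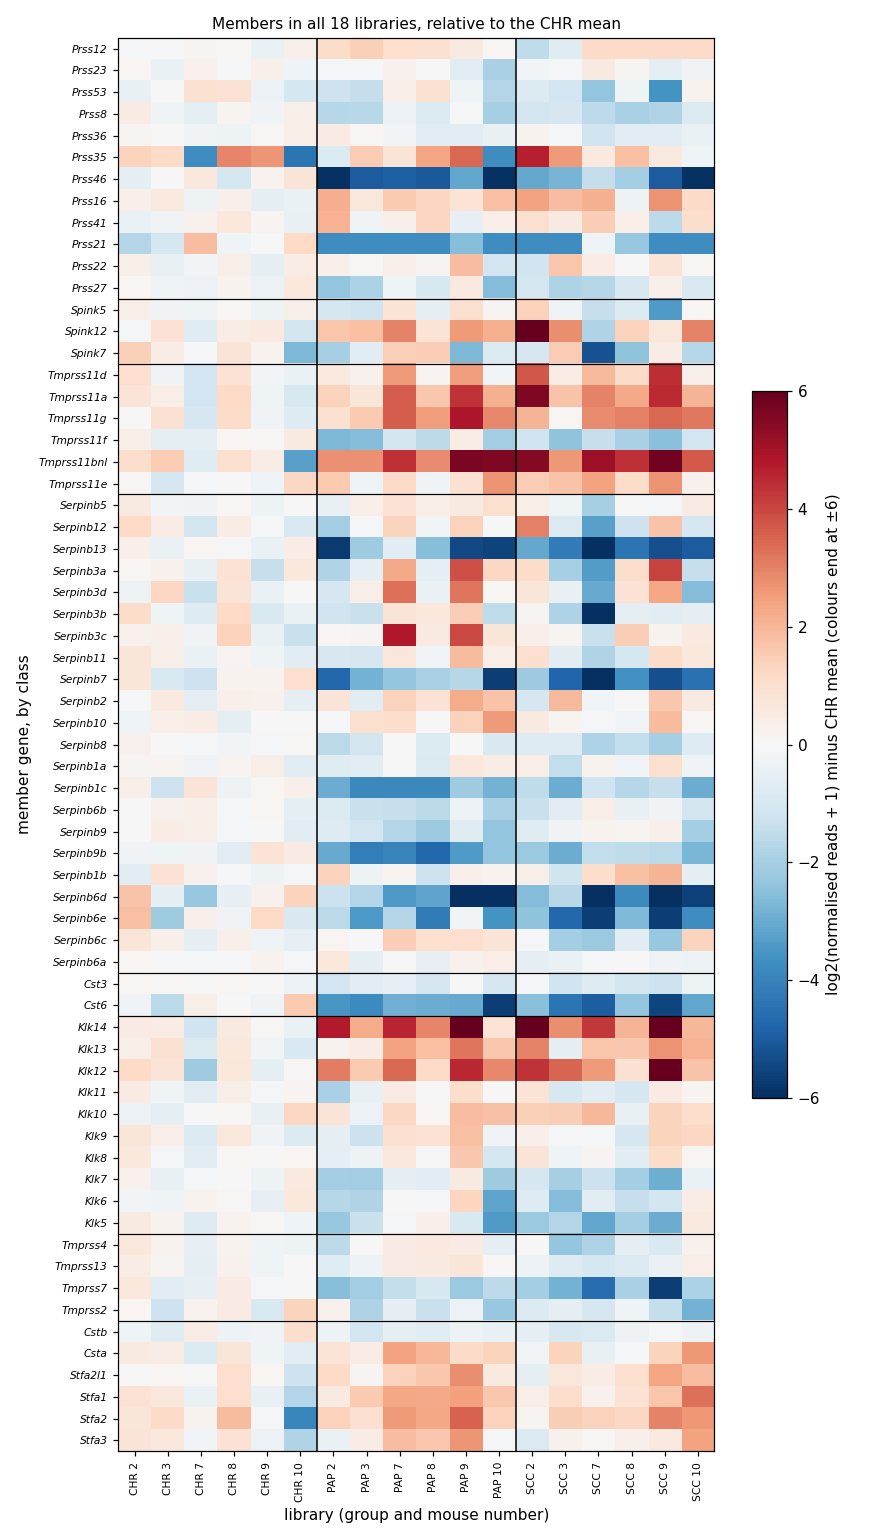
Log2 of the normalised read count + 1 of each of the 65 genes in each of the 18 libraries, as the difference from the mean of the 6 CHR libraries (red higher, blue lower, colours ending at ±6), with genes sorted by class and chromosome order. Tmprss11bnl and Klk14 are red and Cst6, Serpinb7 and Serpinb13 blue across the lesions, while within PAP the library of mouse 9 is the highest for 36 of the 62 genes with a mean of at least 10 reads.

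The kallikreins, secreted serine proteases, lie side by side on chromosome 7 (GRCm38), from Klk14 (start 43690418) to Klk5 (end 43851181). Their changes followed no single direction. Of 10 genes, 3 were higher and 1 lower in PAP, and 4 were higher and 2 lower in SCC. The shares of all genes were 22.8% higher and 28.7% lower in PAP, and 15.1% and 21.4% in SCC. In chromosome order the log2 fold changes in SCC compared with CHR were 1.98 for Klk14, 1.60 for Klk13, 2.05 for Klk12, -0.17 for Klk11, 1.11 for Klk10, 0.27 for Klk9, 0.20 for Klk8, -1.60 for Klk7, -0.99 for Klk6 and -1.73 for Klk5, so that the genes called higher and those called lower lay toward opposite ends of the cluster.

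Klk14, a trypsin-like kallikrein active in the stratum corneum, had 2.32 to 10.1 (median 8.16) normalised reads in CHR, 12.6 to 554 (median 118) in PAP and 29.6 to 939 (median 96.2) in SCC. Every lesion was above every CHR library, although 3 of the 6 papillomas and 3 of the 6 carcinomas had no more than 56.0 reads. The log2 fold change was 1.59 ± 0.60 (SE, adjusted p = 0.0334) in PAP and 1.98 ± 0.60 (SE, adjusted p = 0.0158) in SCC. Because CHR held about 8 reads, the ratio of mean normalised counts was far larger, at 24.0 in PAP and 44.4 in SCC. Both calls were lost in limma-voom on recovered reads (adjusted p = 0.0818 in PAP and 0.0595 in SCC) and without mouse 2 (0.0535 and 0.056), and the call in PAP also without mouse 7 (0.111) and mouse 9 (0.0828). Centring on the keratinocyte markers ended the call in PAP as well (0.325).

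Klk13 ranged over 249 to 877 (median 514) in CHR, 550.0 to 4396 (median 1563) in PAP and 318 to 3687 (median 1735) in SCC. Both lesion groups overlapped CHR, and the gene was higher in 4 of 6 papillomas and 5 of 6 carcinomas than in the skin of the same mouse. Its log2 fold changes were 1.48 ± 0.53 (SE, adjusted p = 0.025) in PAP and 1.60 ± 0.53 (SE, adjusted p = 0.0234) in SCC, and both calls were lost without mouse 7, 9 or 10 (adjusted p = 0.0715 to 0.121), that in PAP also without mouse 8 (0.0544) and that in SCC without mouse 2 (0.0546). For Klk12, the levels were 6.97 to 79.2 (median 44.7) in CHR, 76.7 to 782 (median 274) in PAP and 63.5 to 2253 (median 292) in SCC. All 6 mice had more in both lesions than in their skin, though the ranges touched, with log2 fold changes of 1.68 ± 0.56 (SE, adjusted p = 0.019) in PAP and 2.05 ± 0.56 (SE, adjusted p = 0.00903) in SCC. The call in PAP was lost in limma-voom (adjusted p = 0.0689) and without mouse 7 (0.0856). Centring on the keratinocyte markers ended the calls of Klk13 (0.315) and Klk12 (0.243) in PAP.

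Klk7, the chymotrypsin-like enzyme that digests corneodesmosomes, was after the stefin gene Stfa3 the most abundant of the 65 genes per kilobase of exon in CHR (13010 normalised reads per kb). It ranged over 17700 to 35830 (median 23200) in CHR, 5546 to 34600 (median 10270) in PAP and 3131 to 18240 (median 7880) in SCC. The papilloma of mouse 9 lay within the CHR range and the other 5 lay below it, and in SCC the gene was lower in 6 of 6 mice. The log2 fold change was -1.16 ± 0.44 (SE, adjusted p = 0.037) in PAP, where the call was lost with the mouse as block (adjusted p = 0.0612), with median centring (0.0602) and without any of mice 2, 3, 7, 8 and 10 (0.056 to 0.139), and -1.60 ± 0.44 (SE, adjusted p = 0.00959) in SCC. Klk5, the trypsin-like enzyme that can activate Klk7, had 1093 to 2689 (median 2066) in CHR, 174 to 2314 (median 870.0) in PAP and 214 to 2805 (median 427) in SCC. In SCC, 5 mice had at most 557 reads and mouse 10 had 2805, above all CHR libraries. Its log2 fold changes were -1.16 ± 0.54 (SE, adjusted p = 0.081) in PAP and -1.73 ± 0.54 (SE, adjusted p = 0.0188) in SCC, and the call in SCC was lost without mouse 2, 3 or 9 (adjusted p = 0.0639, 0.0613 and 0.0856). In PAP, Klk5 was called lower without mouse 7 (adjusted p = 0.0453) and with centring on the keratinocyte markers (6.69e-05).

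The other kallikreins changed less. Klk10 was called in SCC only, from 1759 to 5961 (median 2302) in CHR to 1861 to 10190 (median 6655) in SCC, with a log2 fold change of 1.11 ± 0.42 (SE, adjusted p = 0.0445). This call was lost without mouse 2, 3, 7 or 9 (adjusted p = 0.121 to 0.137). It was also lost on the log2(normalised read count + 1) scale (0.0546) and with centring on the keratinocyte markers (0.271). In PAP, Klk10 was called higher with median centring (adjusted p = 0.0437) and without mouse 8 (0.0392). Klk6 had 7662 to 16730 (median 10490) in CHR, 1188 to 26460 (median 6547) in PAP and 1795 to 14890 (median 5598) in SCC, with a wide overlap. It was lower in 5 of 6 papillomas and 6 of 6 carcinomas than in the skin of the same mouse and was not called (adjusted p = 0.203 and 0.193), except in PAP without mouse 9 (-1.44, adjusted p = 0.048) and with centring on the keratinocyte markers (-1.90, adjusted p = 0.00223). Klk8, also called neuropsin, Klk9 and Klk11 had log2 fold changes between -0.17 and 0.27 in both lesions, none of them called. With centring on the keratinocyte markers, Klk8 (adjusted p = 0.0256) and Klk11 (0.00503) were called lower in PAP.

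**Figure D2:**
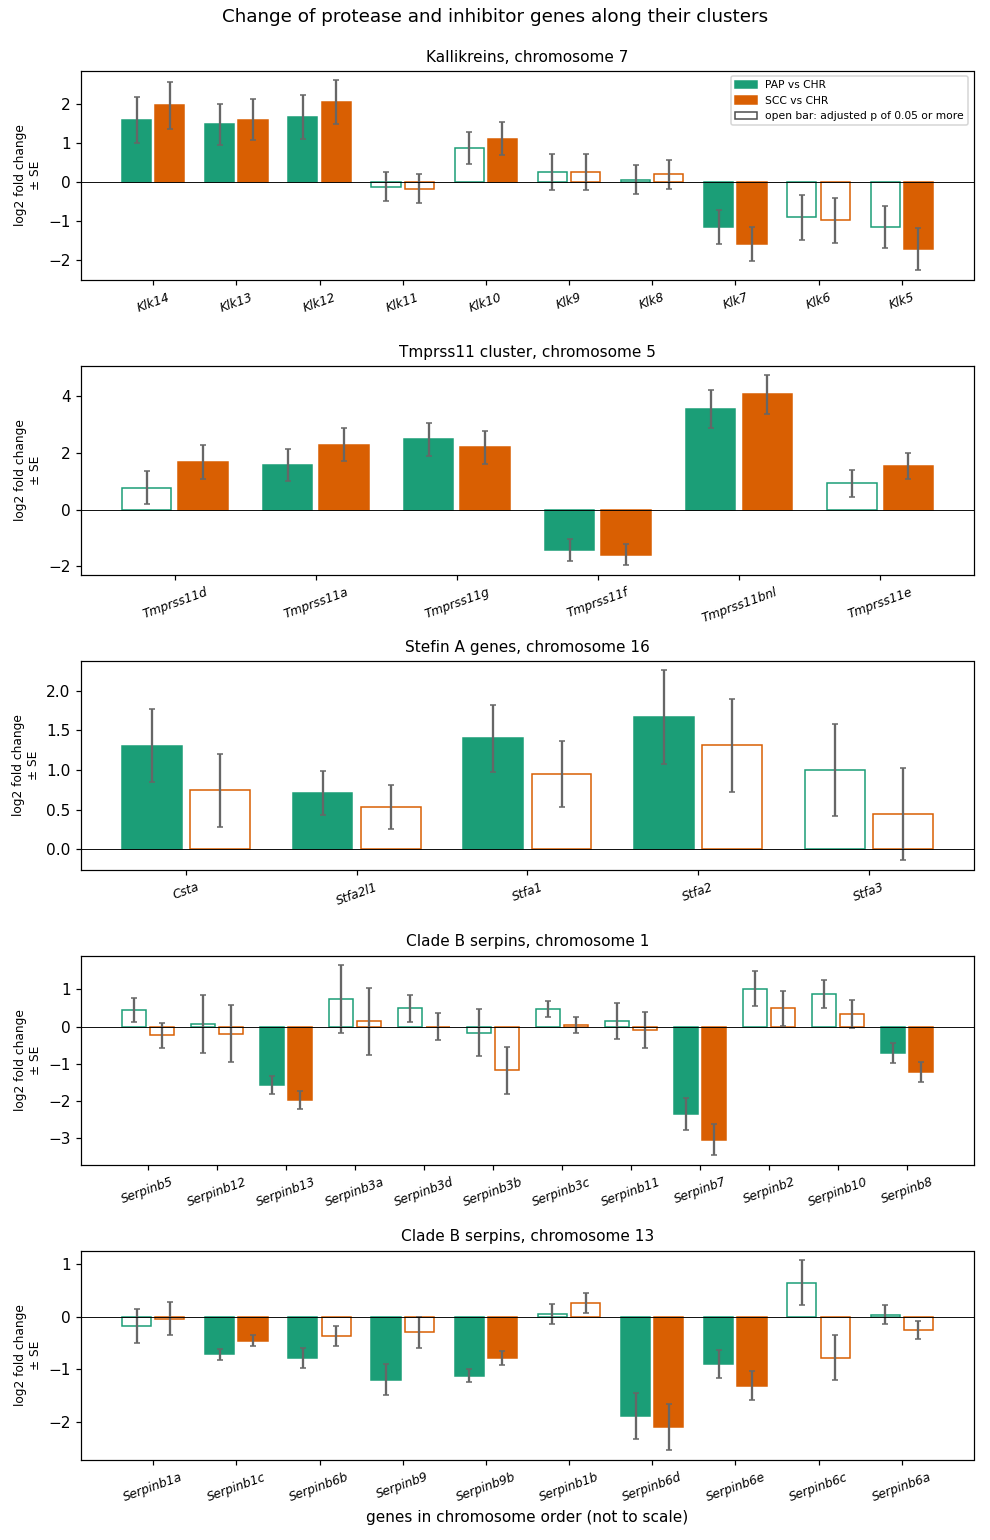
Log2 fold change (± SE, n = 6 per group) of PAP (green) and SCC (orange) compared with CHR for the genes of 5 clusters in chromosome order, on the log2(value + 1) scale, with open bars for an adjusted p of 0.05 or more. Klk14, Klk13 and Klk12 rise while Klk7 falls, Tmprss11f is the only gene of its cluster below 0 in these 2 comparisons, and no clade B serpin has a filled bar above 0.

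Within each library, the ratio of 2 kallikreins is free of the library's scaling, and it is compared here between groups only, since the genes differ in length. The ratio of Klk13 to Klk7 reads was 0.00694 to 0.0496 in CHR (median 0.0216), 0.0959 to 0.261 in PAP (median 0.120) and 0.0523 to 0.994 in SCC (median 0.200). Every lesion exceeded every CHR library. The ratio of Klk12 to Klk5 was 0.00638 to 0.0294 in CHR, 0.0331 to 1.46 in PAP and 0.0402 to 9.53 in SCC, again without overlap. These pairs were chosen after their values had been seen, so the separation is given as a description.

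Spink5 encodes LEKTI, the secreted inhibitor of Klk5, Klk7 and Klk14. It was abundant in all groups, at 20340 to 32600 (median 24170) in CHR, 10930 to 49380 (median 22400) in PAP and 2419 to 66890 (median 17950) in SCC. The spread widened in the lesions on both sides of the CHR range, and no difference was detected (log2 fold change -0.15 ± 0.57 (SE, adjusted p = 0.847) in PAP and -0.72 ± 0.57 (SE, adjusted p = 0.338) in SCC). With centring on the keratinocyte markers, Spink5 was called lower in PAP (-1.14, adjusted p = 0.0258). The within-library ratio of Spink5 to Klk7 was 0.908 to 1.23 in CHR, 1.13 to 5.05 in PAP and 0.773 to 5.67 in SCC, and was above its mouse's own skin in 6 of 6 papillomas and 5 of 6 carcinomas. That of Spink5 to Klk5 was 10.1 to 21.2 in CHR, 7.24 to 161 in PAP and 9.38 to 167 in SCC. It was below its mouse's own skin in the papilloma of mouse 8 and the carcinomas of mice 9 and 10, and above it in the others. A ratio to Klk14, which rose in both lesions, was not computed, so these ratios are a description. Spink12 had 13.4 to 55.2 (median 33.8) in CHR, 53.4 to 237 (median 119) in PAP and 7.64 to 4691 (median 143) in SCC, the highest value being the carcinoma of mouse 2. It was higher than in the skin of the same mouse in 6 of 6 papillomas and 5 of 6 carcinomas and was not called (adjusted p = 0.213 and 0.0874), but it was called in PAP when PAP and CHR were fitted alone (1.06, adjusted p = 0.00113) and without mouse 2 (1.10, adjusted p = 0.0284). Spink7 was also not called, except lower in PAP with centring on the keratinocyte markers (adjusted p = 0.00244).

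**Figure D3:**
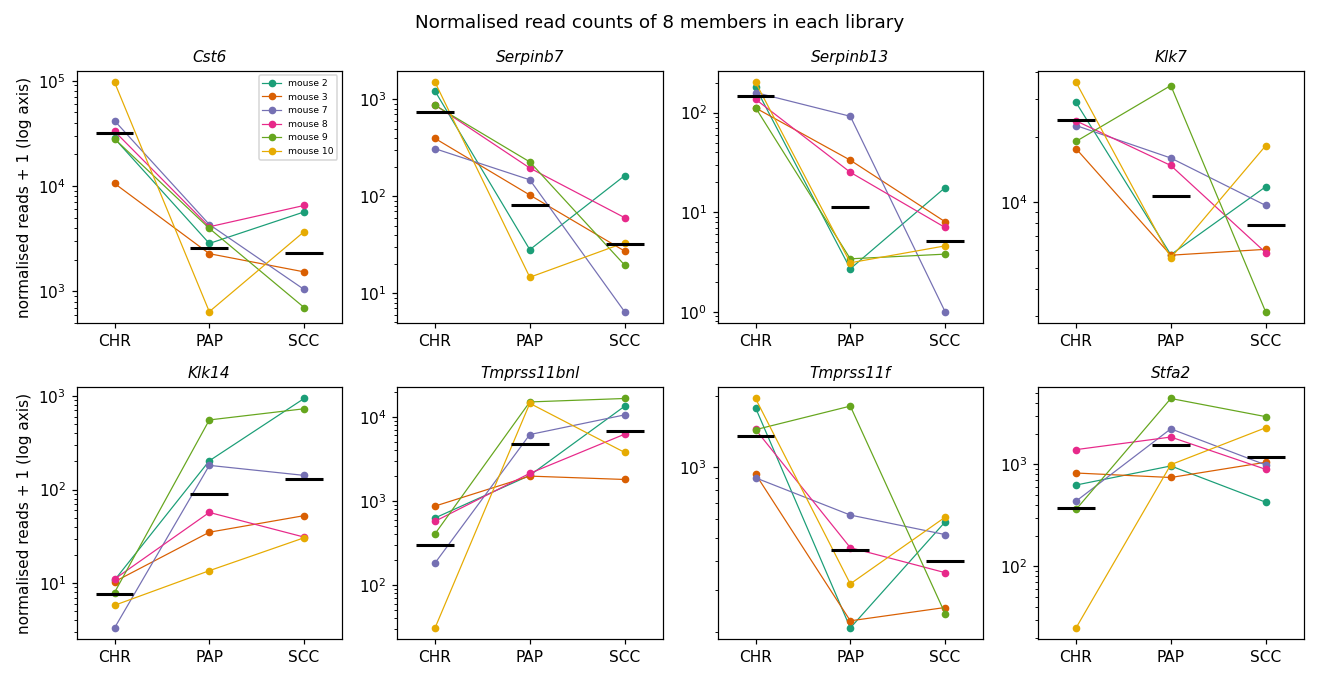
Normalised read count + 1 (log axis) of 8 members in CHR, PAP and SCC, with 1 line per mouse and black bars for the geometric mean of each group. Cst6, Serpinb7 and Serpinb13 are lower in all lesions than in any CHR library, Klk14 and Tmprss11bnl are higher in all lesions, and Klk7, Tmprss11f and Stfa2 overlap between CHR and PAP.

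The Tmprss11 genes encode serine proteases anchored in the membrane of surface epithelia, and lie together on chromosome 5 between 86302217 and 86745815. In PAP 3 of 6 were higher and 1 lower, and in SCC 5 were higher and 1 lower, so that all 6 were called there. The shares of all genes were 22.8% higher and 28.7% lower in PAP, and 15.1% and 21.4% in SCC. Tmprss11bnl, named Tmprss11b in the annotation, rose most among the 65 genes on the log2(value + 1) scale, while the ratio of mean counts, 15.6 in PAP and 19.5 in SCC, was below that of Klk14 in both lesions. It had 29.8 to 866 (median 488) in CHR, 1970 to 15050 (median 4142) in PAP and 1797 to 16540 (median 8386) in SCC. The ranges did not overlap, the skin of mouse 10 was lowest at 29.8 reads, and the log2 fold changes were 3.56 ± 0.68 (SE, adjusted p = 0.000292) in PAP and 4.07 ± 0.68 (SE, adjusted p = 0.000198) in SCC in 6 of 6 mice. Tmprss11g followed with 158 to 695 (median 297) in CHR, 635 to 9195 (median 2120) in PAP and 354 to 3467 (median 2473) in SCC. The carcinoma of mouse 3 was the 1 lesion below the skin of its own mouse, and the log2 fold changes were 2.48 ± 0.58 (SE, adjusted p = 0.0017) and 2.20 ± 0.58 (SE, adjusted p = 0.00673).

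Tmprss11a had 25.6 to 132 (median 62.4) in CHR, 96.7 to 1168 (median 218) in PAP and 192 to 2859 (median 369) in SCC. Each carcinoma was above all CHR libraries, and the log2 fold changes were 1.57 ± 0.57 (SE, adjusted p = 0.0276) in PAP, a call that was lost in limma-voom and without mouse 7, 9 or 10 (adjusted p = 0.0651 to 0.130), and 2.30 ± 0.57 (SE, adjusted p = 0.00449) in SCC, which held in every setting. Tmprss11d, the human airway trypsin-like protease, and Tmprss11e, known as DESC1, had 1.67 (adjusted p = 0.0351) and 1.55 (adjusted p = 0.0153) in SCC and were not called in PAP. Both calls in SCC were lost without mouse 7 and without mouse 9 (adjusted p = 0.0642 to 0.119), that of Tmprss11d also without mouse 2 (0.0805) and in limma-voom (0.0658), and that of Tmprss11e without mouse 3 (0.054). Centring on the keratinocyte markers ended the calls of Tmprss11d (0.0806) and Tmprss11e (0.118) in SCC and of Tmprss11a (0.284) in PAP.

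Tmprss11f was the exception in this cluster. It had 898 to 1951 (median 1439) in CHR, 206 to 1811 (median 385) in PAP and 238 to 611 (median 435) in SCC. The papilloma of mouse 9 lay within the CHR range, the other papillomas and all carcinomas lay below it, and the log2 fold changes were -1.43 ± 0.38 (SE, adjusted p = 0.00442) and -1.58 ± 0.38 (SE, adjusted p = 0.0035). The within-library ratio of Tmprss11bnl to Tmprss11f was 0.0153 to 0.93 in CHR (median 0.316), 4.69 to 45.6 in PAP (median 9.33) and 6.19 to 69.6 in SCC (median 19.0). That of Tmprss11g to Tmprss11f was 0.0969 to 0.651 in CHR and 1.40 to 14.6 in the carcinomas. Both pairs join a gene that rose with the gene that fell and were chosen after their values had been seen, so they are a description.

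Of the other Tmprss genes, Tmprss7, known as matriptase-3, fell from 31.2 to 78.2 (median 48.9) in CHR to 7.64 to 25.0 (median 13.2) in PAP and 0 to 12.5 (median 8.78) in SCC, without overlap, with log2 fold changes of -0.70 ± 0.15 (SE, adjusted p = 0.000947) and -1.01 ± 0.15 (SE, adjusted p = 8.02e-05). Tmprss4 had 2826 to 6085 (median 3867) in CHR, 1330 to 5858 (median 4644) in PAP and 793 to 4633 (median 2375) in SCC, and Tmprss13, a membrane protease of the suprabasal epidermis, had 1618 to 3224 (median 2491), 1445 to 3908 (median 2913) and 1150 to 3088 (median 1596). Neither was called (adjusted p = 0.106 to 0.868), nor was Tmprss2, the protease that primes several respiratory viruses, which had at most 49.0 normalised reads in any library. With centring on the keratinocyte markers, Tmprss4 (adjusted p = 0.0026 and 0.00393) and Tmprss13 (0.00284 and 0.0128) were called lower in PAP and SCC. Tmprss2 was called lower in PAP with that centring (0.000565) and in SCC without mouse 3 (0.0475).

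**Figure D4:**
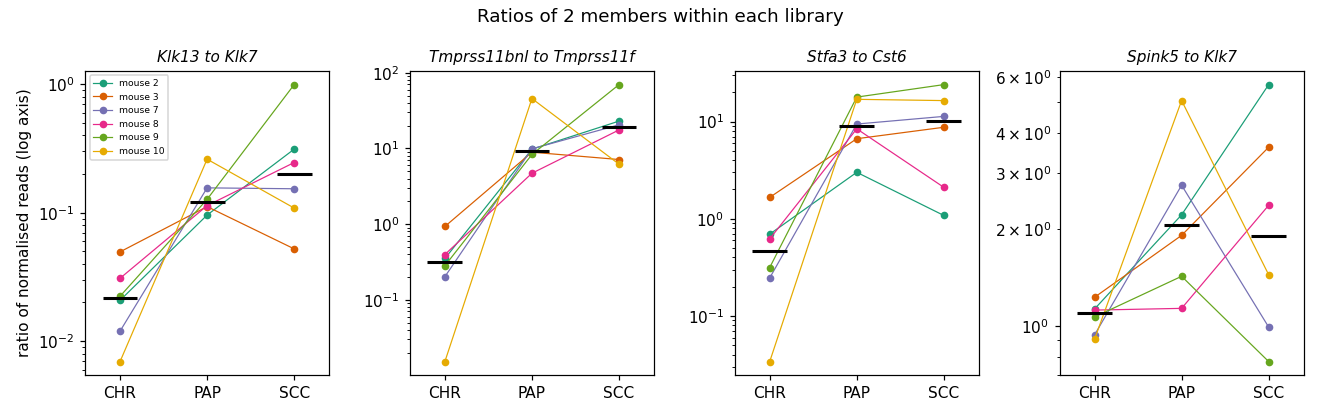
Ratio of the normalised reads of 2 members within the same library (log axis) in CHR, PAP and SCC, with 1 line per mouse and black bars for group medians. Klk13 to Klk7 and Tmprss11bnl to Tmprss11f separate all lesions from all CHR libraries, while Stfa3 to Cst6 and Spink5 to Klk7 overlap between CHR and at least 1 lesion group.

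Prss8 encodes prostasin, a membrane-anchored protease needed for the skin barrier. It had 757 to 1519 (median 1090) in CHR, 272 to 1052 (median 481) in PAP and 286 to 597 (median 435) in SCC. All carcinomas lay below all CHR libraries and papillomas overlapped them, with log2 fold changes of -0.98 ± 0.28 (SE, adjusted p = 0.00637) and -1.24 ± 0.28 (SE, adjusted p = 0.00207). Its partner matriptase (St14) was not called, with log2 fold changes of 0.45 and 0.25, nor were the matriptase inhibitors Spint1 and Spint2, while Epcam, an adhesion protein that matriptase can cleave, fell by 1.30 in PAP and 1.44 in SCC on the log2 scale. Of the 11 genes of this membrane protease pathway, 3 were higher and 2 lower in PAP, and 1 was higher and 2 were lower in SCC. The shares of all genes were 22.8% higher and 28.7% lower in PAP, and 15.1% and 21.4% in SCC.

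Prss46 fell from 28.3 to 104 (median 64.0) in CHR to 0 to 5.99 (median 0.878) in PAP and 0 to 21.8 (median 7.05) in SCC, without overlap, with log2 fold changes of -1.49 ± 0.18 (SE, adjusted p = 4.11e-06) and -1.15 ± 0.18 (SE, adjusted p = 0.000146). Prss21, known as testisin, was weak throughout, at 2.93 to 46.5 (median 11.1) in CHR, at most 1.20 reads in PAP and at most 9.82 in SCC, and was called lower in both. Prss16, known from the thymus, went from 20.8 to 46.8 (median 31.2) in CHR to 49.2 to 143 (median 83.8) in PAP and 24.9 to 203 (median 126) in SCC, with log2 fold changes of 0.69 ± 0.23 (SE, adjusted p = 0.0178) and 0.91 ± 0.23 (SE, adjusted p = 0.00526), and its sign in PAP turned to -0.30 when libraries were centred on the keratinocyte markers, which also ended the call in SCC (adjusted p = 0.252). Without mouse 2, 7 or 10 the call in PAP was lost (adjusted p = 0.0528 to 0.0654). Prss27 was called lower in PAP only (-0.99, adjusted p = 0.0369) and lost this call in 6 settings. In SCC it passed with SCC and CHR fitted alone (adjusted p = 0.0225), without mouse 9 (0.0123) and with centring on the keratinocyte markers (0.0175). The other 7 Prss genes were not called, and Prss35 varied most among mice, between 7.68 and 1357 reads within CHR. In other settings, Prss12 was called higher in PAP with PAP and CHR fitted alone (adjusted p = 0.0028), with median centring (0.0343) and without mouse 10 (0.0492). Centring on the keratinocyte markers called Prss23, Prss36, Prss41 and Prss53 lower in PAP. Prss53 was also called lower in SCC with that centring (0.0123) and without mouse 10 (0.0289).

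The clade B serpins form clusters on chromosome 1 (12 genes) and chromosome 13 (10 genes). None of the 22 was called higher in either comparison, where 12 and 7 had an unadjusted p under 0.05 in either direction, and limma-voom also called 0 higher. Other settings called 4 of them higher in PAP. Serpinb10 passed with the mouse as block (0.88, adjusted p = 0.0405), in limma-voom with the block (0.0386), with median centring (0.0259) and without mouse 2 (0.0471). Serpinb2 passed with median centring (0.0421), with PAP and CHR fitted alone (0.0406) and without mouse 3 (0.00673), Serpinb3c with median centring (0.0232) and Serpinb6c with PAP and CHR fitted alone (0.0495). In PAP 9 were lower (40.9%) and in SCC 7 (31.8%). Of all genes, 22.8% were higher and 28.7% lower in PAP, and 15.1% and 21.4% in SCC. On chromosome 1 the 3 lower genes, Serpinb7, Serpinb13 and Serpinb8, were called in both lesions and stood among 9 genes that were not called in either. They make up 25% of the 12 genes there, near the share of all genes.

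Serpinb7, whose human counterpart is mutated in a palmoplantar keratosis, had 309 to 1501 (median 871) in CHR, 13.6 to 225 (median 125) in PAP and 5.46 to 162 (median 29.2) in SCC. Every lesion was below every CHR library, the carcinoma of mouse 7 being lowest. The log2 fold changes were -2.35 ± 0.42 (SE, adjusted p = 0.000167) in PAP and -3.03 ± 0.42 (SE, adjusted p = 3.82e-05) in SCC, and the mean normalised count was 7.27-fold lower in PAP and 17.0-fold lower in SCC. Serpinb13, an inhibitor of cathepsins L and K in squamous epithelia, had 110.3 to 201 (median 147) in CHR, 1.70 to 90.7 (median 13.3) in PAP and 0 to 16.6 (median 4.80) in SCC. It too fell without overlap, although the papilloma of mouse 7 kept 90.7 reads, with log2 fold changes of -1.56 ± 0.25 (SE, adjusted p = 5.2e-05) and -1.97 ± 0.25 (SE, adjusted p = 1.63e-05). Serpinb8, an inhibitor of furin, had 2986 to 4012 (median 3240) in CHR, 1076 to 3384 (median 1821) in PAP and 818 to 1949 (median 1568) in SCC. All carcinomas lay below CHR, with a log2 fold change of -1.22 ± 0.26 (SE, adjusted p = 0.00159), and in PAP the value of -0.71 ± 0.26 (SE, adjusted p = 0.0302) was not called with the mouse as block (adjusted p = 0.064), with median centring (0.0772) or without any of mice 2, 3, 8 and 10 (0.0708 to 0.131).

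Promoters were examined because Serpinb7, Serpinb8 and Tmprss11f were called lower within clusters in which most genes were not. RefSeq promoter windows (GRCm38.p6, 130 bases before to 20 after the start) were matched for 51 of the 65 genes, 8 of them with more than 1 start, which gave 64 windows. Serpinb13 and Tmprss11e were among the 14 genes without an entry. TGANTCA, letters that cover the consensus of AP-1 factors and were searched on both strands, stood in 8 of the 64 windows (12.5%), each of a different gene, and in 1379 of all 32851 promoter windows of that length (4.2%). The 8 genes were Serpinb7, Serpinb8 and Tmprss11f, which fell, Tmprss11d, which was higher in SCC, and 4 serpins of chromosome 1 that were called in neither lesion, Serpinb2, Serpinb10, Serpinb11 and Serpinb12. The pattern allows any base in the middle, whereas the consensus has C or G there. Serpinb7, Serpinb8 and Tmprss11f held TGAGTCA, and the others held TGAATCA or TGATTCA, which are not the consensus. Shares for the consensus alone were not computed. A match of letters is a description and not evidence of binding, and the motif and window were chosen after the expression values were known. The windows of the 4 called genes, at chr1:107422559-107422708 (plus strand), chr1:107589876-107590025 (plus), chr5:86632405-86632554 (minus) and chr5:86373368-86373517 (minus), are printed 5′ to 3′ with the motif in capitals.
Serpinb7: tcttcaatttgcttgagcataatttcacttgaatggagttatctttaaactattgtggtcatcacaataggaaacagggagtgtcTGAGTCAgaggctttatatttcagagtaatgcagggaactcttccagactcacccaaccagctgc
Serpinb8: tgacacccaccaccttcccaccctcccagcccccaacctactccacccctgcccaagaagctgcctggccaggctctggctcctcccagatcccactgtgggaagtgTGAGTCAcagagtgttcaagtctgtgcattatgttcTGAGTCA
Tmprss11f: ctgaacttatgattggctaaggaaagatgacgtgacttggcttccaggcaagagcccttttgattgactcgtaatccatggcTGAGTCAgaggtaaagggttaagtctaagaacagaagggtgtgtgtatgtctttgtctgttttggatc
Tmprss11d: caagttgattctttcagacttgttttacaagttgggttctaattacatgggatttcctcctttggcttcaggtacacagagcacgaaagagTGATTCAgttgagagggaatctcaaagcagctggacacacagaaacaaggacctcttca
Serpinb8 held the motif at 2 positions, 1 of them after the start, and the other 3 windows held it once, between 39 and 48 bases before the start.

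The other serpins of chromosome 1 were not called, apart from the settings given above. Serpinb3b was also called lower with centring on the keratinocyte markers, in PAP (adjusted p = 0.0257) and SCC (0.0163). Serpinb5, known as maspin, had 7279 to 12910 (median 8608) in CHR, 6492 to 17440 (median 12390) in PAP and 2278 to 12770 (median 8704) in SCC, where the carcinoma of mouse 7 was the lowest library. Serpinb2, the plasminogen activator inhibitor PAI-2, had 1329 to 2895 (median 2033), 1190 to 8872 (median 4265) and 953 to 7373 (median 2369), with a log2 fold change of 1.02 ± 0.47 (SE, adjusted p = 0.0763) in PAP. Serpinb3a, of the family named squamous cell carcinoma antigen in humans, varied from 113 to 5937 reads among papillomas and from 38.2 to 6709 among carcinomas, compared with 153 to 724 in CHR, and was not called (adjusted p = 0.52 and 0.922). Serpinb12 had 702 to 3463 (median 1692), 350.5 to 3850 (median 1455) and 156 to 12250 (median 778) in the 3 groups. The 4 Serpinb3 genes share 12.2% to 15.0% of their 50-base stretches with another gene, and Serpinb2 and Serpinb10 overlap on the chromosome, so the separate counts of these genes are uncertain.

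On chromosome 13, 6 of 10 serpins were lower in PAP and 4 in SCC, where 28.7% and 21.4% of all genes were lower. The set is small and its difference from all genes was not tested. Serpinb6d had 36.0 to 595 (median 173) in CHR, 0 to 73.8 (median 17.3) in PAP and 0 to 56.9 (median 7.35) in SCC. The gene was lower in 6 of 6 mice in both lesions, although the ranges overlapped, with log2 fold changes of -1.89 ± 0.44 (SE, adjusted p = 0.00168) and -2.10 ± 0.44 (SE, adjusted p = 0.00135). Serpinb9, which inhibits granzyme B, had 330.2 to 711 (median 526) in CHR, 101 to 316 (median 198) in PAP and 126 to 658 (median 529) in SCC. Papillomas lay below all CHR libraries (-1.20 ± 0.30 (SE, adjusted p = 0.00265)) and carcinomas overlapped them (-0.30 ± 0.30 (SE, adjusted p = 0.454)). Serpinb9b fell from 31.1 to 85.1 (median 41.4) in CHR to 0.861 to 8.39 (median 2.84) in PAP and 5.25 to 16.4 (median 12.1) in SCC, without overlap (-1.12 ± 0.13 (SE, adjusted p = 1.66e-06) and -0.79 ± 0.13 (SE, adjusted p = 0.000155)).

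Serpinb1c and Serpinb6e also fell in both lesions, at no more than 24.4 and 170.0 normalised reads in any CHR library. Serpinb6b was lower in PAP (-0.79 ± 0.19 (SE, adjusted p = 0.00225)) and not called in SCC (-0.37 ± 0.19 (SE, adjusted p = 0.134)). Serpinb6a, an inhibitor of cathepsin G, and Serpinb1a, an inhibitor of neutrophil elastase, had medians of 4708 and 1358 reads in CHR and log2 fold changes of 0.04 and -0.18 in PAP, neither of them called. Both were called lower in PAP with centring on the keratinocyte markers (adjusted p = 0.0132 and 0.00719). T cells carry granzymes, and 9 T cell markers summed to 1053 to 2425 reads in CHR, 166 to 584 in PAP and 402 to 1284 in SCC, with 9 of 9 lower in PAP and 7 of 9 in SCC. Their part in the change of Serpinb9 and Serpinb9b was not tested.

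The stefin A genes encode small intracellular inhibitors of cysteine cathepsins and lie together on chromosome 16. In PAP 4 of the 5 rose (Csta, Stfa2l1, Stfa1 and Stfa2), and in SCC 0 of 5 were called, with 2 at an unadjusted p under 0.05 and 0 called in limma-voom, although Stfa1 passed without mouse 2 (1.23, adjusted p = 0.0395). Of all genes, 22.8% were higher in PAP and 15.1% in SCC. Stfa2 had 24.0 to 1396 (median 532) in CHR, 744 to 4429 (median 1425) in PAP and 426 to 2942 (median 1019) in SCC. The skin of mouse 10 was far below the other skin samples, at 24.0 reads, and the log2 fold changes were 1.67 ± 0.59 (SE, adjusted p = 0.0244) in PAP and 1.31 ± 0.59 (SE, adjusted p = 0.0887) in SCC. Stfa1 had 47.0 to 319.7 (median 190.5) in CHR, 232 to 874 (median 635) in PAP and 189.9 to 1571 (median 313) in SCC, with 1.40 ± 0.42 (SE, adjusted p = 0.00962) and 0.95 ± 0.42 (SE, adjusted p = 0.0822). Csta (Csta1 in the annotation) had 866 to 2512 (median 1701), 2091 to 8300 (median 3642) and 1122 to 9393 (median 2690), with 1.31 ± 0.46 (SE, adjusted p = 0.0244) and 0.75 ± 0.46 (SE, adjusted p = 0.218).

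Stfa3 was the most abundant of the 65 genes per kilobase of exon in every group, with means of 32380 normalised reads per kb in CHR, 73000 in PAP and 49550 in SCC. It had 3279 to 20530 (median 13900) in CHR, 8563 to 70700 (median 24850) in PAP and 6134 to 60580 (median 13570) in SCC, and was not called (log2 fold change 1.004 ± 0.58 (SE, adjusted p = 0.158) in PAP). Stfa2l1 rose by 0.71 in PAP, a sign that turned to -0.29 under centring on the keratinocyte markers, and all 4 calls were lost without mouse 9 (adjusted p = 0.0505 to 0.0878). Those of Csta, Stfa2 and Stfa2l1 were also lost without mouse 7 (0.0811 to 0.106), and that of Stfa2l1 in limma-voom and without mouse 2, 8 or 10 (0.0578 to 0.0636). Centring on the keratinocyte markers ended all 4 calls (0.232 to 0.438). Stfa1, Stfa2 and Stfa2l1 share 15.9% to 24.6% of their 50-base stretches with another gene, so their separate counts are uncertain. In the same libraries 11 neutrophil markers, cells in which stefin A genes are also known, summed to 2733 to 9391 reads in CHR, 8088 to 37470 in PAP and 10390 to 149700 in SCC. The markers did not move together. In PAP, Mmp9, S100a8 and S100a9 were higher, with means of 6428, 8286 and 11140 normalised reads there. Mpo and Csf3r were lower (log2 fold changes -1.15 and -1.32), with means of 13.1 and 153, and the others were not called. Ngp and Camp were at 0 in at least 1 papilloma. Their part in the stefin result was not tested.

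The promoter windows of Stfa1, Stfa2, Stfa2l1 and Stfa3 are close copies, and they are shown because 3 of these genes (Stfa1, Stfa2 and Stfa2l1) were called higher in PAP. Between Stfa2 and Stfa2l1, 88.7% of the 150 bases were identical position by position after alignment, and for pairs among Stfa1, Stfa2, Stfa2l1 and Stfa3 the share was 81.3% to 88.7%, compared with 58.7% to 61.3% for Csta with each of the 4. However, the end of the Csta window reads much like the first part of the Stfa1 window, so the Csta window is out of register. Its lower share therefore does not show that its promoter differs. The longest run common to all 4 is 17 bases at the start site. It occurs in 5 of all 32851 promoter windows (0.0152%), of which 4 are the windows it was taken from. This share is therefore no measure of specificity. The windows lie at chr16:36277018-36277167 (plus strand), chr16:36408344-36408493 (minus), chr16:36156681-36156830 (plus) and chr16:36455373-36455522 (minus), and the common run is in capitals.
Stfa1: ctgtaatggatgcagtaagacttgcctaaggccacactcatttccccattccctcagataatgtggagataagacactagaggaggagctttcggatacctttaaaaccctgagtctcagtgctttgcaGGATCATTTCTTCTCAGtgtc
Stfa2: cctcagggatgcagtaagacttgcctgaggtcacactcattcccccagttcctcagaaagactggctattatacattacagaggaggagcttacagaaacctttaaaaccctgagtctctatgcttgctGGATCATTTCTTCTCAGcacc
Stfa2l1: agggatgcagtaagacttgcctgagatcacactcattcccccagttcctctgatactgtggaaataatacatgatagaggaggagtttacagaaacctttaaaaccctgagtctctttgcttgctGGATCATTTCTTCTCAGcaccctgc
Stfa3: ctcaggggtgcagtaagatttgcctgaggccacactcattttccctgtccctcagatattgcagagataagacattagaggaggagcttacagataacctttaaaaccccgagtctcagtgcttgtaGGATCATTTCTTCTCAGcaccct
The 4 genes that carry the run include Stfa3, which was not called. Csta, which was called, lacks it in its window, but that window is out of register with the others.

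Cst6 encodes cystatin M/E, a secreted inhibitor of legumain and cathepsin L. It showed the largest decrease of the 65 genes in both lesions on the log2(value + 1) scale. It had 10580 to 96610 (median 30670) in CHR, 641 to 4312 (median 3405) in PAP and 702 to 6540 (median 2610) in SCC. Every lesion was below every CHR library, in which the skin of mouse 10 was highest and that of mouse 3 lowest. The log2 fold changes were -3.59 ± 0.59 (SE, adjusted p = 7.26e-05) in PAP and -3.74 ± 0.59 (SE, adjusted p = 0.000126) in SCC, and the mean count was 13.1-fold and 12.4-fold lower. Sebaceous gland markers fell in the same libraries, from sums of 55420 to 165800 in CHR to 2866 to 8433 in PAP and 3605 to 17470 in SCC, and their part in the fall of Cst6 was not tested. Cst3, the ubiquitous secreted cystatin C, fell less, from 8630 to 12130 (median 11440) in CHR to 4903 to 10680 (median 6231) in PAP and 4655 to 10020 (median 5813) in SCC (-0.73 ± 0.21 (SE, adjusted p = 0.00679) and -0.79 ± 0.21 (SE, adjusted p = 0.00666)). Cstb, or stefin B, had 3687 to 12630 (median 5269), 2809 to 5020 (median 4337) and 3169 to 5803 (median 4492), and its log2 fold change of -0.56 ± 0.24 (SE, adjusted p = 0.0615) in PAP was called with the mouse as block (adjusted p = 0.0289), in limma-voom with the block (0.0272), with centring on the keratinocyte markers (0.000508) and without mouse 3 (0.0452).

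The proteases that stefins and cystatins inhibit were described through a list of 12 genes, with 10 cysteine cathepsins, legumain (Lgmn) and Ctsa, which is a serine carboxypeptidase and not a target of these inhibitors. In PAP 11 of the 12 were lower and 0 higher, and in SCC 9 were lower. Without Ctsa these counts were 10 of 11 and 8 of 11. Of all genes, 28.7% were lower in PAP and 21.4% in SCC. Over the 12 genes, summed reads were 105800 to 192200 in CHR, 30510 to 63350 in PAP and 49000 to 115900 in SCC. Ctsl fell by 1.70 in PAP and 1.21 in SCC on the log2 scale, and Lgmn by 1.38 in PAP (adjusted p = 0.000457) but was not called in SCC (-0.71, adjusted p = 0.0516). The gene not called in PAP was Ctsc, with 0.30. Macrophages are rich in several of these enzymes, and 9 macrophage markers summed to 44510 to 72030 in CHR and 1477 to 10100 in PAP. Their part in the fall of the cathepsins was not tested.

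Among the substrates and partners of the kallikreins, 2 of 12 genes were higher and 4 lower in PAP, and 1 was higher and 5 were lower in SCC. For this and the other lists here, the shares of all genes were 22.8% higher and 28.7% lower in PAP, and 15.1% and 21.4% in SCC. Dsg1a, a desmosomal cadherin cut during shedding, had log2 fold changes of -0.90 in PAP (adjusted p = 0.243) and -2.22 in SCC (adjusted p = 0.0103), and Cdsn, encoding corneodesmosin, was not called. Lor, for the envelope protein loricrin, fell by 1.71 and 2.65. Tgm3, a transglutaminase that crosslinks the envelope, rose by 2.21 and 2.19. Over the 16 terminal differentiation markers measured, 3 were higher and 8 lower in each lesion group, beside Klk7, with summed reads of 63800 to 216200 in CHR, 44560 to 145800 in PAP and 38920 to 140700 in SCC. Granule serine proteases gave 4 of 6 lower in PAP, and other secreted inhibitors 4 of 10, among them Serpina3n at -4.47.

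**Figure D5:**
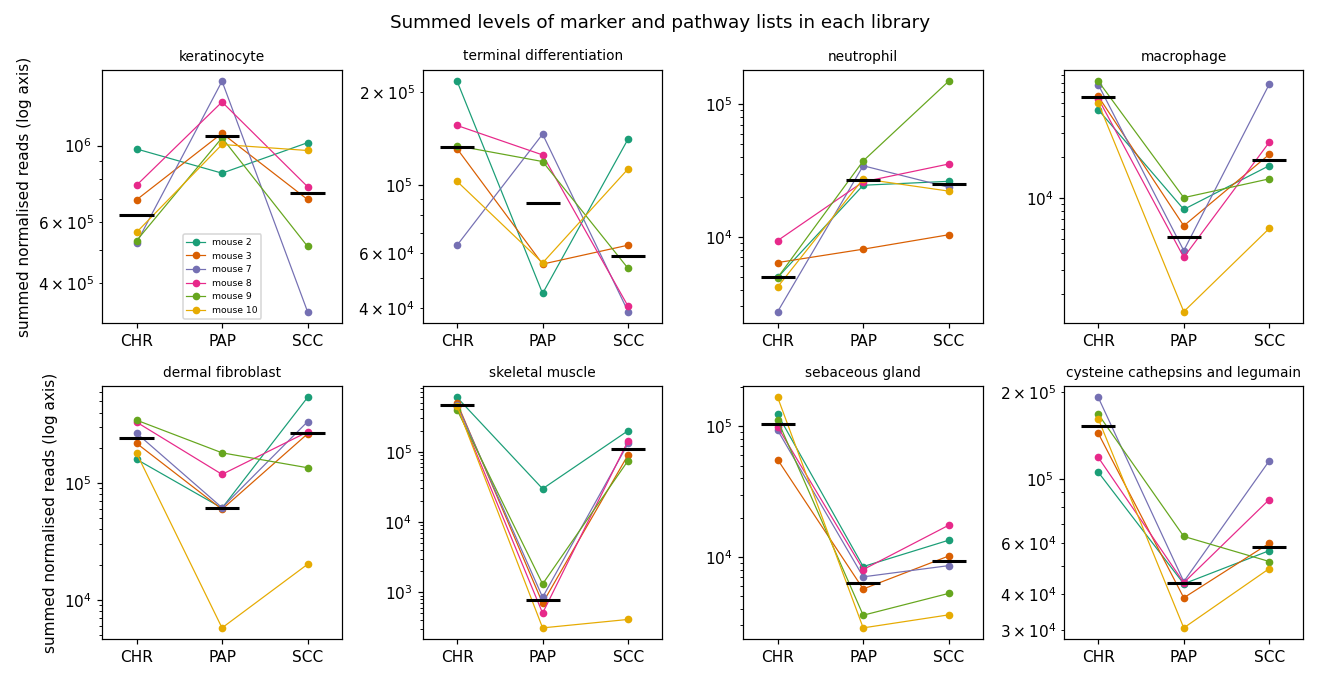
Summed normalised reads (log axis) of 8 gene lists in CHR, PAP and SCC, with 1 line per mouse and black bars for group medians. The cathepsin list includes Ctsa. Cathepsin, macrophage, sebaceous and muscle sums are lower in all papillomas than in any CHR library, and the carcinoma of mouse 10 has the lowest muscle and fibroblast sums among the carcinomas.

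Carcinomas and papillomas were then compared directly. None of the 65 genes was called between SCC and PAP in limma, with 6 at an unadjusted p under 0.05, while 4.99% of all genes were higher and 0.592% lower in SCC. limma-voom also called 0. With the mouse as block Serpinb9 was higher in SCC (0.90, adjusted p = 0.0246), and with limma-voom and the block together Serpinb9 and 2 others, Serpinb9b and Serpinb1c, were higher. Centring on the keratinocyte markers called 8 higher, and the log2(normalised read count + 1) scale called Serpinb9b. Without mouse 10, 3 members were higher in SCC (Serpinb9, Serpinb9b and Tmprss11e) and 2 lower (Klk5 and Serpinb6c), where 11.7% of all genes were higher and 2.95% lower. Serpinb6c had 419 to 1022 reads in CHR, 611 to 1711 in PAP and 126 to 1561 in SCC, with a log2 fold change of -1.43 ± 0.43 (SE, adjusted p = 0.0572) in all mice and -1.82 (adjusted p = 0.00321) without mouse 10. A p that misses the threshold does not show that the lesions were alike, and the SE of this comparison reached 0.94 for Prss35.

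Within each group, these genes varied more between libraries than the median of all genes. The scale understates changes of weakly expressed genes, and the genes were not matched for level. With a single library per mouse and group, variation between animals and between pieces of tissue cannot be told apart. The median SD over mice on the log2(value + 1) scale was 0.39 for the members and 0.17 for all genes in CHR, 0.74 and 0.30 in PAP, and 0.73 and 0.31 in SCC. The papilloma of mouse 9 was the highest papilloma for 36 of 62 members with a mean of at least 10 reads, including 9 of 10 kallikreins, 4 of 6 Tmprss11 genes and 4 of 6 stefins. In CHR the highest library was most often that of mouse 2 (20 of 62), and in SCC those of mouse 9 (19), mouse 10 (16) and mouse 2 (14). The papilloma of mouse 10 was lowest for 19 members, 5 of them kallikreins, and the carcinoma of mouse 7 for 17, of which 10 were serpins.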

How the data were processed

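Reads had been counted per gene by the authors with HTSeq on mm10 (GRCm38), as listed in the submitters' processing notes. The deposited values are a score, namely whole numbers on the linear scale of the variance-stabilizing transformation of DESeq2, the authors' tool, in which 0 reads appear as 39. The annotation release and the use of strand in counting are not given in the sources used here, so a gene and an antisense partner cannot be told apart. All 18 sample columns were used and 0 were left unmapped. A further 21 of the 14542 rows were named by a number only (at most 0.236% of a library's reads) and were left out. Inverting the transformation with a fitted zero level of 39.13 gave whole reads for 99.5% of values and for 100% of those under 100, where whole means that the transform of a whole read number, once rounded, equals the deposited value exactly, at 15.42 to 21.02 M reads per library with size factors of 0.835 to 1.18. Normalised read counts are these reads divided by the size factor.

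The test was limma (version 3.58.1 in R 4.3.3, two-sided) on log2(value + 1) over 14521 genes, with 1 coefficient per group, all 18 libraries in 1 fit and Benjamini-Hochberg adjustment over all genes (threshold 0.05). Count models were not used because the deposited values are transformed. In a simulated table of 18 libraries and 14521 genes, with 200 genes altered in PAP, the test of PAP and CHR found 38% of 2-fold and 99% of 4-fold changes with 3.52% false calls. The simulated spread was set in advance, without differences between mice. The members themselves had a median SD of 0.74 in PAP and 0.73 in SCC on the log2(value + 1) scale. The simulated shares therefore do not tell how many such changes would be found among these genes. Levels per kilobase use the union of exons in GENCODE M21. Libraries with the same number come from the same animal. Over genes, the deviations of same-mouse libraries from their group means correlated between -0.25 and 0.51, and fits with the mouse as replicate block were run as alternatives, along with another pseudocount, a minimum mean of 10 reads, other scales and centrings, limma-voom on recovered reads, fits of 2 groups alone and each mouse left out. The members, the marker and pathway lists and the motifs were chosen with earlier results of these data known. A further pathway list is not reported here. Named members were the 8 called with the largest increase and the 8 with the largest decrease per comparison, and 26 epidermal genes called or not, and the other members were added to complete each cluster.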

Additional observations from a re-analysis of the deposited data

Results flagged for a closer look

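In 114 sets of 6 libraries (38 named members in 3 groups), 5 held a library whose gap to the nearest of the others was above Dixon's 95% critical value, and chance gives about 1 in 20. In CHR, Cst3 had 8630 normalised reads in mouse 10, below the 10940 to 12130 of the others, and Klk10 had 5961 in mouse 10, above 1759 to 2676. In PAP, Cst6 had 640.8 in mouse 10, below 2278 to 4312. In SCC, Klk5 had 2805 in mouse 10, above 213.9 to 556.5, and Serpinb5 had 2278 in mouse 7, below 7492 to 12770. These 5 values lay in 4 libraries, 3 of them from mouse 10.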

How the results depend on the processing

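The count of members higher in PAP than in CHR, 11 as reported, was 7 in limma-voom, 2 with centring on the keratinocyte markers and 3 to 12 with each mouse left out, the lowest without mouse 7 (3) and mouse 9 (4). The count lower in PAP, 18 as reported, was 36 with centring on the keratinocyte markers and 15 to 19 with each mouse left out. The count higher in SCC than in CHR, 10 as reported, was 6 with that centring and 6 to 10 with each mouse left out, 6 being reached without mouse 7 and without mouse 9. The count higher in SCC than in PAP, 0 as reported, was 1 with the mouse as replicate block, 1 on the log2(normalised read count + 1) scale, 3 with limma-voom and the replicate block together, 8 with centring on the keratinocyte markers and 0 to 3 with each mouse left out, and the count lower was 0 to 2, both upper values without mouse 10. The count lower in SCC than in CHR, 16 as reported, was 14 to 22 over all settings. Klk8 and Tmprss13 in PAP turned from positive to negative with centring on the keratinocyte markers, at -0.93 (adjusted p = 0.0256) and -0.87 (adjusted p = 0.00284), and so did Serpinb6a (-0.96), Serpinb1b (-0.95) and Prss41 (-0.74), all 5 called lower there, while Prss16 (-0.30) and Stfa2l1 (-0.29) turned and lost their call. Outside this centring, settings added calls for 7 members higher and 3 lower in PAP, and 2 higher and 4 lower in SCC, compared with CHR. Apart from the centring, by its construction, the cause of these changes was not tested.

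Of 41 calls for named members, 26 held in every setting run. The replicate block lost 2 (Klk7 and Serpinb8 in PAP), limma-voom 5, and leaving out mouse 7 or mouse 9 lost 11 each. Another 70 values, none called, changed sign. The centring on keratinocyte markers and limma-voom with the block were chosen after seeing the data. Depth limits the genes with a library at 0, which were 9 of the 65. Read sharing limits Prss53, with 74.4% of its 50-base stretches in an overlapping transcript, and the stefin A and Serpinb3 copies.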
